A study of Homo sapiens with 9 samples.

Results

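The genes followed here encode the histone demethylases KDM6A and KDM6B and the subunits of the COMPASS-like complexes that are built around KMT2C or KMT2D. They were taken by symbol from the 57733 genes listed for every library, and all 10 were found: KDM6A, KDM6B, KMT2C, KMT2D, NCOA6, PAXIP1, PAGR1, ASH2L, RBBP5 and WDR5. Nascent RNA was measured in PANC-1, a human pancreatic cancer line, as KO C22 and KO C28, KDM6A knockout clones made with CRISPR/Cas9, and as WT, a PANC-1 control that carried no guide RNA. Each knockout group is 1 clone, so a clone's own history and the loss of KDM6A cannot be told apart within it. Bru-seq captured RNA made during 30 min (0.5 h) in 2 mM bromouridine, with 0 h before extraction, in 2 libraries per line. BruUV-seq added 100 J/m2 of UV light, with 1 library per line, for 9 libraries in all. UV lesions stop RNA polymerase, so in this assay reads gather near the starts of long genes.

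KDM6A (UTX) and KDM6B (JMJD3) are related enzymes that remove methyl groups from lysine 27 of histone H3, a repressive mark that Polycomb repressive complex 2 (PRC2) lays down. KDM6A is also a subunit of the complexes in which KMT2C (MLL3) or KMT2D (MLL4) place methyl groups on lysine 4 of histone H3 at enhancers. NCOA6, PAXIP1 (PTIP) and PAGR1 (PA1) belong to those complexes and not to the related SET1 and MLL complexes, whereas ASH2L, RBBP5 and WDR5 are core subunits of the whole family. KDM6A and KMT2D are recurrently mutated in pancreatic and other cancers.

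Depth was 15.8 to 31.1 M estimated reads in genes in 7 of the libraries, 14.4 M in BruUV-seq KO C22 and 5.64 M in Bru-seq KO C28 replicate 2. That last library stood apart before any comparison: 46.5% of its reads lay outside genes, against 9.93% to 20.0% elsewhere, and its log2 CPM correlated with the other libraries at 0.631 to 0.745 across genes. Main values of the 10 genes printed for KO C28 over WT that change sign without it are given both ways. Over the 304 olfactory receptor genes, which epithelial cells do not normally transcribe, that library carried 1.00 reads per kb, against 0.0635 to 0.574 reads per kb in the others. Per M reads in genes this density was 0.178 reads per kb, against 0.00286 to 0.0314 in the others. The epithelial keratins KRT8, KRT18 and KRT19 were read in all 9 libraries, at a summed 11.0 to 13.9 RPKM in Bru-seq KO C22, 38.9 to 236 RPKM in KO C28 and 19.6 to 30.7 RPKM in WT. Of 8 markers of other cells, INS was at 0 in 9 libraries, PTPRC, CD3E, CD79A, PECAM1, VWF and ALB stayed at or under 0.041 RPKM, and CD68 had 0.584 to 3.29 RPKM from at most 8.77 reads.

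Promoter windows from RefSeq (GRCh38.p14), 250 bases before to 50 after each start, were matched to 7 of the genes, all but NCOA6, PAXIP1 and ASH2L. The windows of KDM6A, KDM6B and KMT2D are printed because they show where transcription of these genes is annotated to begin relative to the interval over which the reads were counted, which matters for an assay that keeps reads near starts. Capitals mark the AP-1 motif TGANTCA and the E-box CACGTG, searched on both strands with GC boxes (GGGCGG) and CCAAT boxes (CCAAT). KDM6A is shown on the plus strand (chrX:44872938-44873237), KDM6B on the plus strand from its upstream start (chr17:7833967-7834266) and from a start inside the counted interval (chr17:7839667-7839966), and KMT2D on the minus strand (chr12:49060745-49061044).
KDM6A: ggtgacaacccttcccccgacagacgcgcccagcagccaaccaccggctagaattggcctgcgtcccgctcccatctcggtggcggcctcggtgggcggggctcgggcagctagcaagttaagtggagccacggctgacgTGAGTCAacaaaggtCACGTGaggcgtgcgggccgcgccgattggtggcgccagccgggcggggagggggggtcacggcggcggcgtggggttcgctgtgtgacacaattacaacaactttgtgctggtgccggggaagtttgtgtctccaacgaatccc
KDM6B upstream start: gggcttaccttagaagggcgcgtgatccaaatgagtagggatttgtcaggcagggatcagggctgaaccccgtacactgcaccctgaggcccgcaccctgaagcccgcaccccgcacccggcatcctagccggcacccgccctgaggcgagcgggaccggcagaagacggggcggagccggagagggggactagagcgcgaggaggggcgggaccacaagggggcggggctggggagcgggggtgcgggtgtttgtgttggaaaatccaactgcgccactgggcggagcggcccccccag
KDM6B inner start: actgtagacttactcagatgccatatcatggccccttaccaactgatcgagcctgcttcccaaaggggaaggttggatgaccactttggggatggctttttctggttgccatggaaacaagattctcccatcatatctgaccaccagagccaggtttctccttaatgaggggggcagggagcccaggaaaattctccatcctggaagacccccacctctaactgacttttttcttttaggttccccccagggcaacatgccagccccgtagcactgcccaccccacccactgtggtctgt
KMT2D: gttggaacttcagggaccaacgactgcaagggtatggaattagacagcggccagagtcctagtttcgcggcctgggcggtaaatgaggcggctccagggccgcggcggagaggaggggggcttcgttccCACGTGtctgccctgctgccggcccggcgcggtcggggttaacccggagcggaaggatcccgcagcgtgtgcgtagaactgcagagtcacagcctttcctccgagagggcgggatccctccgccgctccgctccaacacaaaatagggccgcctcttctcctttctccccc
The KDM6A window held 1 AP-1 motif and 1 E-box, separated by a few bases, with 2 GC boxes and 2 CCAAT boxes. Of all 35116 windows of 300 bases in the table, 7.71% held the AP-1 letters, 7.26% the E-box, 45.0% a GC box and 34.6% a CCAAT box. The upstream KDM6B window held 5 GC boxes, 24 CpG pairs and 69.3% G or C, against none of the motifs, 2 CpG pairs and 53.0% in the inner window. The KMT2D window held 1 E-box and 2 GC boxes. The RefSeq start of KDM6A lies 11 bases inside the counted interval, but the KMT2D start lies 5.47 kb upstream of its interval and the upstream KDM6B start 5.69 kb upstream, so reads from those first stretches are not in the counts of KMT2D and KDM6B. A match is a description of letters, and binding was not measured.

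KDM6A, the gene aimed at, was transcribed in every library, so its nascent RNA was not lost in either clone. It lies at chrX:44873177-45112602 on the plus strand (hg38 and GRCh38 are the builds named in the processing notes) and its whole span of 239426 bases was counted. Bru-seq gave 0.969 and 1.15 RPKM (reads per kb of counted length per M reads) in KO C22 and 1.20 and 0.211 RPKM in KO C28, against 1.13 and 0.939 RPKM in WT. BruUV-seq gave 0.424 RPKM in KO C22 and 0.777 RPKM in KO C28, against 0.792 RPKM in WT. As RPKM, the Bru-seq libraries of KO C22 and WT overlapped, KO C28 replicate 1 was the highest, and KO C28 replicate 2 stood alone below the rest. After scaling by TMM, as in the tests, KO C22 replicate 2 was the highest at 430 CPM, against 325 CPM in KO C28 replicate 1. KO C28 replicate 2 was still the lowest, at 81.7 CPM. Means were 1.06 ± 0.129 RPKM in KO C22 and 0.705 ± 0.698 RPKM in KO C28, against 1.04 ± 0.136 RPKM in WT (SD, n = 2 each).

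In the fit of all 9 libraries, with a term for the assay and n = 3 libraries per line, KDM6A differed from WT by a log2 fold change of -0.05 in KO C22 (SE 0.52, edgeR adjusted p = 0.998) and -0.36 in KO C28 (SE 0.52, edgeR adjusted p = 0.789). Without KO C28 replicate 2 this KO C28 value was 0.13 (SE 0.34), of the other sign. Bru-seq alone (n = 2 per line) gave -0.61 (SE 0.86, edgeR adjusted p = 0.875) in KO C28, and without KO C28 replicate 2 the same difference was 0.12 (SE 0.50), of the other sign. At the olfactory receptor density, 45.2% of the KDM6A reads of that library (240 of 532) would be accounted for, against 0.304% to 2.59% in the other 8. Subtracting that density from every library left the Bru-seq value for KO C28 at -0.60 (SE 0.77). Reads summed over a gene of this length do not show a small CRISPR lesion, and loss of the protein was not tested by them. Separate cultures are not stated for the replicates, so all p-values here measure only the spread between these libraries, which may be technical.

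KDM6B (chr17:7839904-7854796, plus strand, 14893 bases), the other H3K27 demethylase, showed the lowest fold changes of the 10 genes in both clones. In fits that did not pair replicate numbers, these fold changes rested on 1 WT library. Bru-seq gave 0.123 and 0.409 RPKM in KO C22 and 0.175 and 0.395 RPKM in KO C28, against 0.234 and 1.67 RPKM in WT. BruUV-seq gave 1.29 RPKM in KO C22 and 1.94 RPKM in KO C28, against 1.91 RPKM in WT. WT replicate 1 lay among the knockout libraries and WT replicate 2 above all of them, while in BruUV-seq KO C28 was level with WT. In Bru-seq, replicate 2 was above replicate 1 in each line. Each knockout Bru-seq library was below the WT library of the same replicate number. After scaling by TMM, the WT replicates differed 7.33-fold for KDM6B, more than for 98.3% of 11806 genes.

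With both assays the log2 fold change of KDM6B in KO C22 was -1.23 (SE 0.81), that in KO C28 -1.03 (SE 0.81) and that of the mean of both clones -1.13 (SE 0.68), with edgeR adjusted p of 0.995, 0.618 and 0.677. Without WT replicate 2 these became 0.14 (SE 0.69), 0.13 (SE 0.68) and 0.14 (SE 0.62). In Bru-seq alone KO C22 was at -1.58 (SE 1.09) and KO C28 at -1.83 (SE 1.10), and 0.52 (SE 1.57) and 0.27 (SE 1.55) without that library, with edgeR adjusted p between 0.735 and 1. Raw counts ran from 42 to 212 reads in the knockout Bru-seq libraries, with 90.5 and 743 reads in WT. Read per length, KDM6B over KDM6A was 0.127 and 0.355 in Bru-seq KO C22 and 0.146 and 1.87 in KO C28, against 0.207 and 1.78 in WT. The 1.87 is from KO C28 replicate 2, where the olfactory receptor density would account for 45.2% of the KDM6A and 24.1% of the KDM6B reads. The same ratio was 3.05, 2.49 and 2.42 in BruUV-seq KO C22, KO C28 and WT, above every Bru-seq library.

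**Figure D1:**
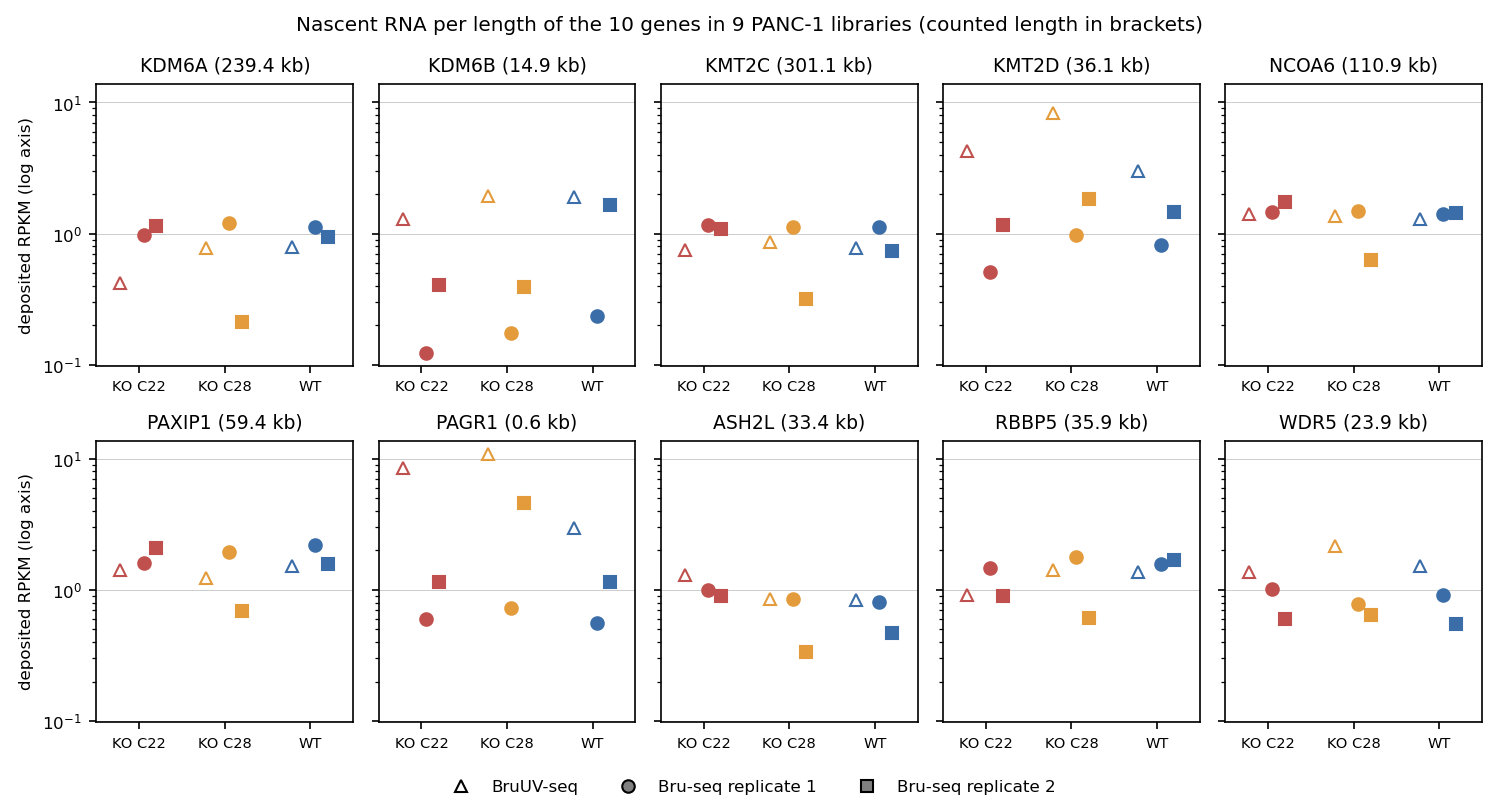
Deposited RPKM on a log axis for each of the 10 genes in 9 libraries, by line (KO C22, KO C28, WT), with open triangles for BruUV-seq, circles for Bru-seq replicate 1 and squares for replicate 2, and the counted length above each panel. KDM6A in KO C28 replicate 2 (0.211 RPKM) and KDM6B in WT replicate 2 (1.67 RPKM) stand away from the other Bru-seq libraries, and all BruUV-seq values of KMT2D and WDR5 lie above their Bru-seq values.

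KMT2C, the MLL3 methyltransferase (chr7:152134925-152436005, minus strand, 301081 bases), stood at similar levels in most libraries. Bru-seq gave 1.17 and 1.08 RPKM in KO C22 and 1.13 and 0.317 RPKM in KO C28, against 1.11 and 0.742 RPKM in WT, and BruUV-seq gave 0.752, 0.867 and 0.778 RPKM in KO C22, KO C28 and WT. All but KO C28 replicate 2 lay within the span of 0.742 to 1.17 RPKM. With both assays its log2 fold change over WT was 0.35 for KO C22 (SE 0.43) and -0.16 for KO C28 (SE 0.43), which without KO C28 replicate 2 was 0.23. An offset for each library's trend with gene length moved the KO C22 value to -0.14 (SE 0.67). KMT2C has near-identical partial copies elsewhere in the genome, and no source used here says how reads shared with them were counted, so its level is uncertain. On the opposite strand 4 genes overlap KMT2C.

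KMT2D, the MLL4 methyltransferase (chr12:49019198-49055324, minus strand, 36127 bases), varied more than KMT2C. Bru-seq gave 0.514 and 1.16 RPKM in KO C22 and 0.973 and 1.83 RPKM in KO C28, against 0.825 and 1.47 RPKM in WT. BruUV-seq gave 4.27 RPKM in KO C22 and 8.32 RPKM in KO C28, against 2.99 RPKM in WT. The Bru-seq ranges of the lines overlapped, whereas both knockout BruUV-seq libraries lay above the WT one. With both assays KO C22 lay at a log2 fold change of 0.07 (SE 0.52) and KO C28 at 0.82 (SE 0.52, edgeR adjusted p = 0.541). Without KO C28 replicate 2 the value for KO C28 was 0.49 (SE 0.54). KMT2D over KMT2C, read per length, was 0.440 and 1.07 in Bru-seq KO C22 and 0.862 and 5.76 in KO C28, against 0.740 and 1.98 in WT. The 5.76 is from KO C28 replicate 2, where the olfactory receptor density would account for 30.1% of the KMT2C reads. In BruUV-seq the ratio was 5.67, 9.60 and 3.84 in KO C22, KO C28 and WT.

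NCOA6, PAXIP1 and PAGR1, the subunits that set the KMT2C and KMT2D complexes apart, did not pass in any comparison between lines. NCOA6, a nuclear receptor coactivator (chr20:34714774-34825649, minus strand), had Bru-seq values of 1.46 and 1.74 RPKM in KO C22 and 1.49 and 0.631 RPKM in KO C28, against 1.41 and 1.43 RPKM in WT. It was the steadiest of the 10 in WT, where its replicates differed 1.07-fold after TMM scaling. PAXIP1, a BRCT-domain protein also known from the DNA damage response (chr7:154943687-155003084, minus strand), had 1.61 and 2.08 RPKM in KO C22 and 1.94 and 0.697 RPKM in KO C28, against 2.19 and 1.57 RPKM in WT. For both genes KO C28 replicate 2 was the lowest Bru-seq library. As RPKM, the other knockout libraries lay above both WT libraries for NCOA6 and overlapped them for PAXIP1. The order for NCOA6 did not hold after TMM scaling, with 181 and 300 CPM in KO C22 and 187 CPM in KO C28 replicate 1, against 183 and 195 CPM in WT. PAXIP1 has 3 genes on the opposite strand over its span, and no source used here says whether strands were counted apart. BruUV-seq gave 1.42, 1.37 and 1.30 RPKM for NCOA6 and 1.42, 1.23 and 1.52 RPKM for PAXIP1 in KO C22, KO C28 and WT.

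PAGR1, the small partner of PAXIP1 (chr16:29815952-29820117, plus strand), was counted over 579 of its 4166 bases and rests on few reads. Bru-seq gave 8.0 and 23.4 reads in KO C22 and 7.8 and 28 reads in KO C28, against 8.4 and 20.0 reads in WT. Per length this was 0.604 and 1.16 RPKM in KO C22 and 0.734 and 4.59 RPKM in KO C28, against 0.558 and 1.15 RPKM in WT. Only KO C28 replicate 2 left the range of the other Bru-seq libraries, and it lay above them. BruUV-seq gave 8.48 RPKM in KO C22 and 11.0 RPKM in KO C28, against 2.94 RPKM in WT. With both assays the log2 fold change in KO C28 was 1.95 (SE 1.00, unadjusted p = 0.0765, edgeR adjusted p = 0.481), and 0.72 (SE 0.84) without KO C28 replicate 2. KO C22 gave 0.82 (SE 0.99). 1 gene on the opposite strand overlaps PAGR1.

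ASH2L, RBBP5 and WDR5 form the core that stimulates the methyltransferases of the family. ASH2L (chr8:38105242-38140080, plus strand), which acts with RBBP5 on the catalytic SET domain, had Bru-seq values of 0.998 and 0.906 RPKM in KO C22 and 0.850 and 0.336 RPKM in KO C28, against 0.808 and 0.465 RPKM in WT. BruUV-seq gave 1.30 RPKM in KO C22 and 0.854 RPKM in KO C28, against 0.835 RPKM in WT. In each assay the KO C22 libraries lay above the WT libraries, while KO C28 overlapped WT in Bru-seq. ASH2L was counted over 33354 of its 34839 bases, and 2 genes on its own strand overlap it. With both assays the log2 fold change in KO C22 was 0.77 (SE 0.37, unadjusted p = 0.0597, edgeR adjusted p = 0.963) and that in KO C28 was -0.01 (SE 0.36), or 0.23 (SE 0.33) without KO C28 replicate 2. The clones themselves differed by -0.78 (SE 0.37, unadjusted p = 0.0576, edgeR adjusted p = 0.782), KO C28 over KO C22.

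RBBP5 (chr1:205086142-205122015, minus strand) had 1.46 and 0.902 RPKM in Bru-seq KO C22 and 1.78 and 0.611 RPKM in KO C28, against 1.57 and 1.69 RPKM in WT. BruUV-seq gave 0.919 RPKM in KO C22 and 1.43 RPKM in KO C28, against 1.38 RPKM in WT. KO C22 lay below WT in both assays and KO C28 lay on both sides of WT. On the opposite strand 1 gene overlaps RBBP5. With both assays its log2 fold change was -0.37 in KO C22 (SE 0.34) and -0.25 in KO C28 (SE 0.34), or 0.08 (SE 0.28) without KO C28 replicate 2. WDR5 (chr9:134136088-134159968, plus strand), a WD-repeat scaffold that joins the catalytic subunit to the core, had 1.01 and 0.602 RPKM in Bru-seq KO C22 and 0.778 and 0.644 RPKM in KO C28, against 0.909 and 0.554 RPKM in WT. BruUV-seq gave 1.38 RPKM in KO C22 and 2.16 RPKM in KO C28, against 1.51 RPKM in WT. The lines overlapped in Bru-seq, and with both assays WDR5 lay at 0.19 in KO C22 (SE 0.35) and 0.25 in KO C28 (SE 0.35).

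Per length, the 10 genes lay close together in WT Bru-seq. Mean RPKM ran from 1.88 for PAXIP1 through 1.63 for RBBP5, 1.42 for NCOA6, 1.15 for KMT2D, 1.04 for KDM6A, 0.951 for KDM6B, 0.928 for KMT2C, 0.855 for PAGR1 and 0.732 for WDR5 to 0.637 for ASH2L (n = 2). The replicate ranges of neighbours in that order overlapped, except those of RBBP5 and NCOA6. These means stood between the percentiles 68.9 and 87.5 of the 34263 genes above 0 in WT.

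None of the 10 genes passed in any comparison between lines, with edgeR's quasi-likelihood test and Benjamini-Hochberg adjustment at 0.05 over all genes. In Bru-seq (22827 genes tested) 0 of 10 passed in KO C22, where 0.00438% of all genes did, and 0 of 10 in KO C28, also with 0.00438% of all genes. At an unadjusted p below 0.05 the count was 0 of 10 in both, against 2.01% of genes in KO C22 and 6.28% in KO C28. DESeq2 called 0 as well, against 0.399% and 0.898% of genes in KO C22 and KO C28, and gave PAGR1 no adjusted p there. The smallest edgeR adjusted p of the 10 was 1 in KO C22 and 0.735 in KO C28.

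With both assays (23443 genes tested) 0 of 10 passed in KO C22, against 0.158% of all genes, 0 in KO C28, against 0.0981%, and 0 for the mean of both clones, against 0.188%. At an unadjusted p below 0.05 there were again 0 of 10 in each, where 5.35%, 10.7% and 7.48% of genes had one. DESeq2 called 0 of 10 in each, against 1.48%, 2.92% and 2.00% of genes. Between the clones, KO C28 over KO C22, edgeR called 0 of 10 and 0% of all genes, 0 of 10 had an unadjusted p below 0.05 against 6.06% of genes, and DESeq2 called 0 against 1.01%. The median log2 fold change of the 10 was 0.16 in KO C22 and -0.18 in KO C28, beside 0.03 and 0.08 over all genes. Above 0 lay 7 of 10 in KO C22, beside 51.6% of all genes, and 3 of 10 in KO C28, beside 53.0%. Both KO C28 values rest on KO C28 replicate 2: without it the median of the 10 was 0.18 and 8 of 10 lay above 0, beside 49.6% of all genes. The biological coefficient of variation was 79.3% in the Bru-seq fit and 70.9% with both assays, so standard errors of the 10 spanned 0.61 to 1.65 in Bru-seq and 0.34 to 1.00 with both. Differences of 1 SE were not detectable here, and differences of more than 1 SE could also miss the threshold. RIOX2, taken up below, was at -1.10 for the mean of both clones (SE 0.29, edgeR adjusted p = 0.308). A missed threshold does not show equal levels.

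**Figure D2:**
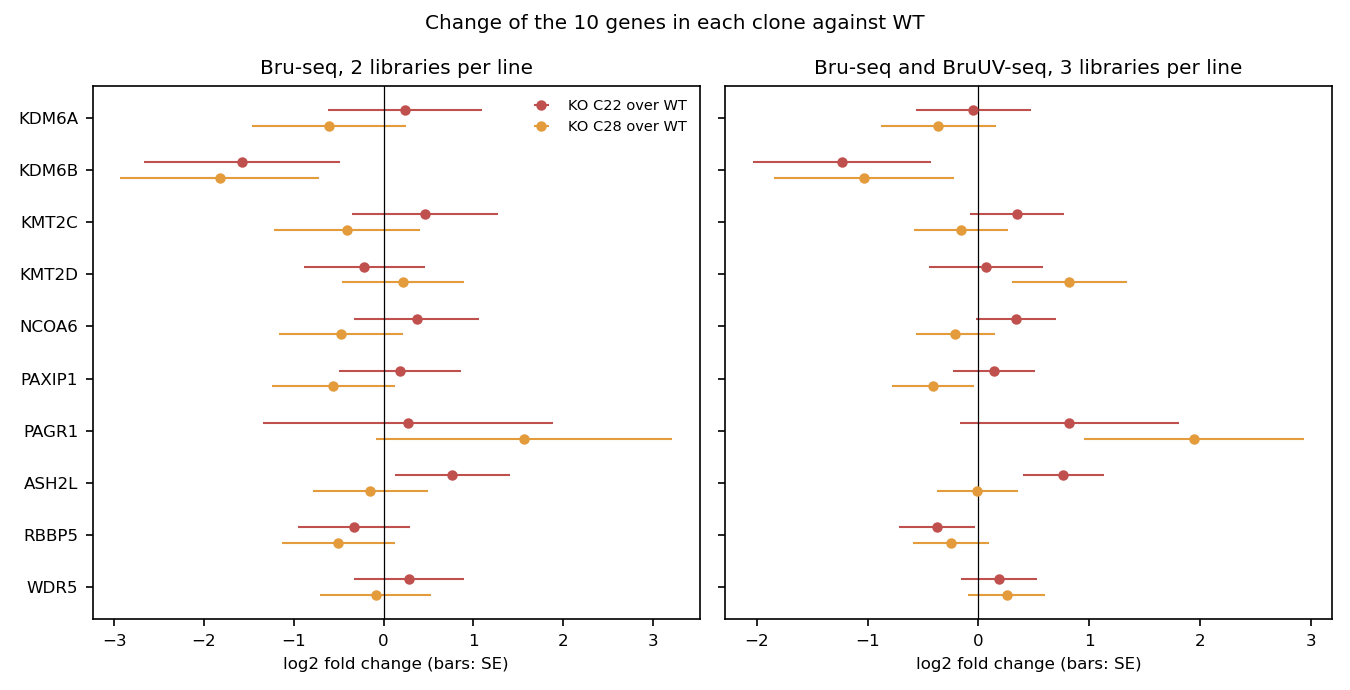
Log2 fold changes of the 10 genes in KO C22 and KO C28 over WT, with bars for the standard error, in Bru-seq alone (2 libraries per line) and in both assays together (3 libraries per line). KDM6B lies lowest in both panels, at -1.58 and -1.83 in Bru-seq and -1.23 and -1.03 with both assays, and PAGR1 lies highest in KO C28.

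BruUV-seq set against Bru-seq, with line as a covariate, gave positive values for the 4 shortest of the genes and for KMT2D, and negative ones for the other 5. The log2 fold changes were 2.08 for PAGR1 (0.579 kb counted), 1.74 for KDM6B (14.9 kb), 0.93 for WDR5 (23.9 kb), 0.25 for ASH2L (33.4 kb), -0.30 for RBBP5 (35.9 kb) and 1.82 for KMT2D (36.1 kb). Among the longer genes they were -0.48 for PAXIP1 (59.4 kb), -0.20 for NCOA6 (110.9 kb), -0.67 for KDM6A (239.4 kb) and -0.38 for KMT2C (301.1 kb). Medians over all tested genes were 0.08 at 10 to 30 kb, -0.46 at 30 to 100 kb, -0.86 at 100 to 300 kb and -1.73 above 300 kb. Above the upper quartile of their length class lay 7 of the 10 genes, PAGR1, KDM6B, WDR5, ASH2L, KMT2D, NCOA6 and KMT2C, and the other 3, RBBP5, PAXIP1 and KDM6A, did not. KMT2D lay 2.28 above the median of its class, and ASH2L and RBBP5, of nearly the same length, lay 0.71 and 0.16 above it. KMT2C and KDM6A lay 1.36 and 0.19 above theirs.

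In this comparison edgeR called 0 of 10 genes after adjustment, beside 0.00427% of all genes. At an unadjusted p below 0.05 there were 4, KMT2D, WDR5, KDM6B and PAGR1, beside 23.4% of all genes. DESeq2 called 3, KMT2D, PAGR1 and WDR5, beside 17.5% of genes. The edgeR adjusted p was 0.112 for KMT2D (SE 0.43) and 0.157 for WDR5 (SE 0.29), and both genes were higher in each of the 3 BruUV-seq libraries than in each of the 6 Bru-seq libraries. For KDM6B (SE 0.67) and PAGR1 (SE 0.82) it was 0.177 and 0.180. Bru-seq WT replicate 2 was above the lowest BruUV-seq value of KDM6B, and Bru-seq KO C28 replicate 2 above that of PAGR1.

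Leaving out Bru-seq KO C28 replicate 2 moved 2 genes past the threshold, beside 15.0% of all genes. KMT2D then rose by 2.04 (SE 0.42, edgeR adjusted p = 0.0176) and PAGR1 by 2.74 (SE 0.65, edgeR adjusted p = 0.0249) on the log2 scale. WDR5 was at 0.92 (SE 0.28, edgeR adjusted p = 0.0511) and KDM6A at -0.94 (SE 0.28, edgeR adjusted p = 0.0520), both just short of it. Against KO C28 replicate 1, that library had PAGR1 7.61-fold, KDM6B 3.19-fold and KMT2D 2.68-fold higher and KDM6A 3.97-fold and KMT2C 2.49-fold lower. WDR5 differed 1.19-fold between the KO C28 replicates.

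**Figure D3:**
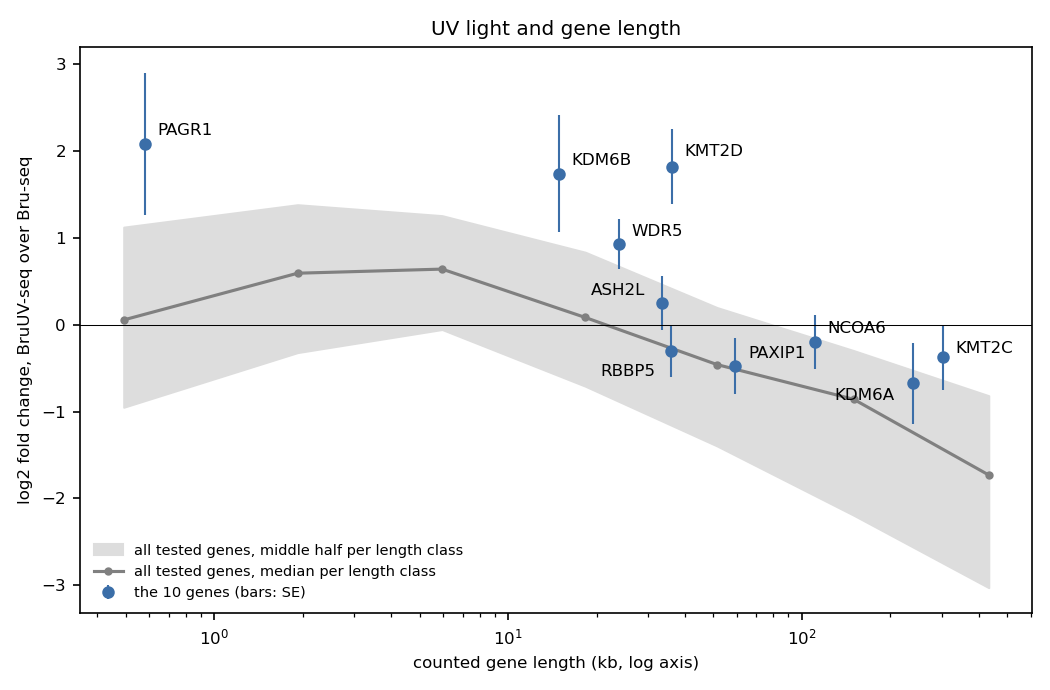
Log2 fold change of BruUV-seq over Bru-seq against counted gene length on a log axis for the 10 genes, with bars for the standard error, over the median (line) and the range between quartiles (grey) of all tested genes by length class. The class medians fall to -1.73 above 300 kb, and KMT2D at 1.82 and KDM6B at 1.74 lie above the grey range while RBBP5 at -0.30, PAXIP1 at -0.48 and KDM6A at -0.67 lie inside it.

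Between lines, BruUV-seq has 1 library each, so ratios scaled by TMM are given with exact binomial 95% intervals that cover counting error only and with no test. KDM6A in KO C22 was 0.611 times WT (0.578 to 0.647) and in KO C28 0.948 times WT (0.907 to 0.990). PAGR1 was 3.30 times WT in KO C22 (2.25 to 4.91) and 3.63 times WT in KO C28 (2.54 to 5.26). KMT2D was 1.63 times WT in KO C22 (1.54 to 1.72) and 2.69 times WT in KO C28 (2.57 to 2.82), and ASH2L was 1.77 times WT in KO C22 and 0.988 times WT in KO C28. Beyond 2-fold lay 1 of 10 genes in KO C22, PAGR1, where 21.4% of 13520 genes did, and 2 of 10 in KO C28, KMT2D and PAGR1, where 13.2% of 13964 genes did. KDM6B was at 0.773 in KO C22 and 0.979 in KO C28, and the other genes, KMT2C, NCOA6, PAXIP1, RBBP5 and WDR5, lay between 0.761 and 1.38.

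The share of each gene's reads that the olfactory receptor density would account for was small outside Bru-seq KO C28 replicate 2. In that library it was 45.2% for KDM6A, 30.1% for KMT2C, 28.4% for ASH2L and 24.1% for KDM6B. KDM6B also had 20.4% in Bru-seq KO C22 replicate 1, its library with the fewest reads. Subtracting the density from all libraries left KDM6B, with both assays, at -1.27 in KO C22 (SE 0.85) and -1.01 in KO C28 (SE 0.85).

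**Figure D4:**
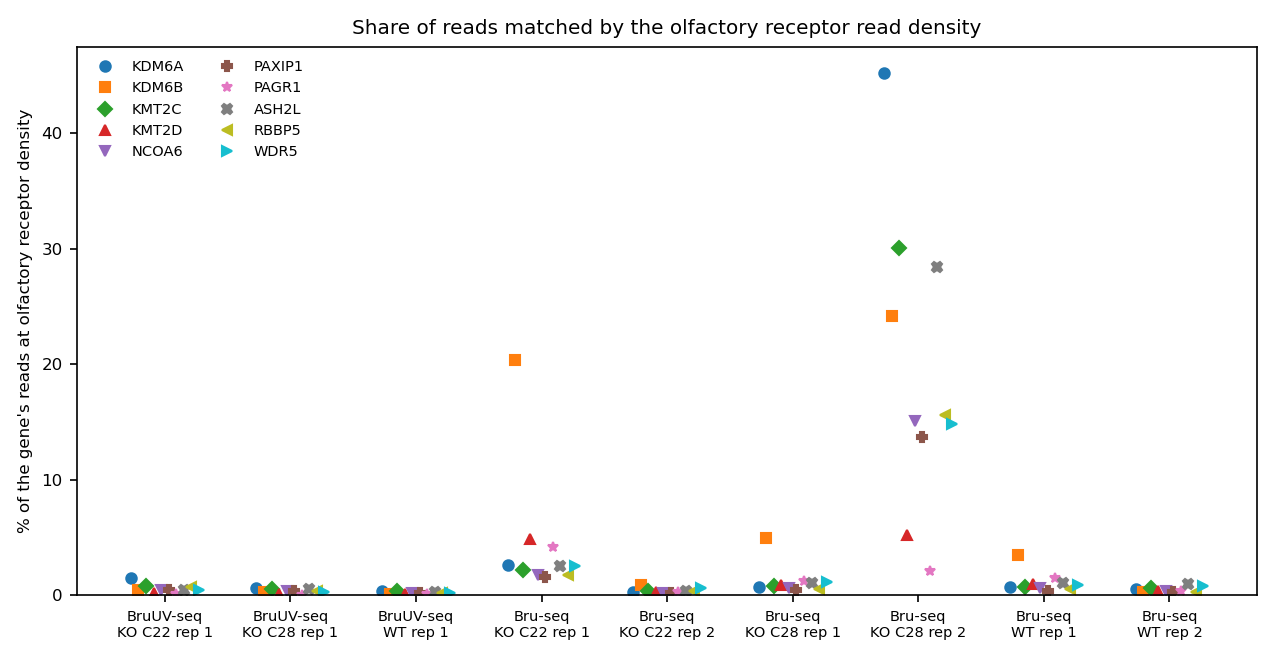
Percent of each gene's reads that the read density over olfactory receptor genes would account for, by library, with a symbol for each of the 10 genes. KDM6A reaches 45.2% in Bru-seq KO C28 replicate 2, and KDM6B 20.4% in KO C22 replicate 1.

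The nearest well-counted genes (a mean of at least 100 reads) on either side of KDM6A and KDM6B did not pass the edgeR test in either clone. FUNDC1, 330 kb from KDM6A (chrX:44523639-44543001, minus strand), lay at -0.35 in KO C22 (SE 0.38) and 0.22 in KO C28 (SE 0.38) with both assays. MIR222HG, 633 kb away on the other side (chrX:45745211-45770274, minus strand), lay at 0.09 (SE 0.60) and -0.64 (SE 0.60). Beside KDM6B, WRAP53 (136 kb) lay at 0.17 (SE 0.47) and 0.01 (SE 0.47), and NAA38, 1.89 kb past its end on the other strand, at 0.21 (SE 0.39) and -0.31 (SE 0.39).

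The genes whose TMM-scaled log2 CPM followed KDM6A most closely over the 9 libraries, of 10950 genes ranked, were HERPUD2, MCU and AVL9, with Pearson r of 0.990, 0.987 and 0.985. Without Bru-seq KO C28 replicate 2 their r was 0.981, 0.978 and 0.973. They are long genes too, counted over 62477, 193761 and 93233 bases. Close to KDM6B were POU6F1 and HSD17B14, with r of 0.992 and 0.986 (0.993 and 0.987 without that library), counted over 29874 and 23662 bases. HSD17B14 had 0.070 and 0.189 RPKM in Bru-seq KO C22 and 0.096 and 0.192 RPKM in KO C28, against 0.104 and 0.490 RPKM in WT, so its WT replicate 2 stood above the other Bru-seq libraries as for KDM6B. These values share the libraries, their assay and their depth, and are a description.

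Among the other genes of these pathways none passed edgeR in any comparison between lines, with 13 of 13 genes of the other SET1 and MLL complexes tested, 21 of 21 other histone lysine demethylases, 16 of 16 enhancer coactivators and SWI/SNF subunits and 5 of 5 PRC2 core subunits. DESeq2 called 0 of them in those comparisons. At an unadjusted p below 0.05 there were at most 2 per list and comparison, beside 2.01% to 10.7% of all genes. In BruUV-seq against Bru-seq edgeR called 0 of them and DESeq2 called 5, 1, 3 and 1 in the order of these lists, beside 17.5% of all genes, with 6, 5, 5 and 1 at an unadjusted p below 0.05, beside 23.4%. For the mean of both clones the list medians were 0.37 for the other SET1 and MLL complexes, -0.09 for the other demethylases, 0.24 for the coactivators and SWI/SNF and -0.11 for PRC2, beside 0.04 over all genes.

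RIOX2, a ribosomal oxygenase, came nearest to the threshold. It had 1.05 and 0.904 RPKM in Bru-seq KO C22 and 1.44 and 0.536 RPKM in KO C28, against 1.96 and 2.75 RPKM in WT, and 0.770, 1.25 and 2.07 RPKM in BruUV-seq KO C22, KO C28 and WT. Every knockout library lay below every WT library, and its log2 fold change for the mean of both clones was -1.10 (SE 0.29, edgeR adjusted p = 0.308). JMJD6, a lysyl hydroxylase, lay at -0.73 (SE 0.29, edgeR adjusted p = 0.654). SMARCA2, a SWI/SNF ATPase, and SMARCC2, a SWI/SNF scaffold, lay at 0.98 (SE 0.36) and 1.10 (SE 0.62), with edgeR adjusted p of 0.594 and 0.672. HCFC1, a SET1 and MLL complex subunit, lay at 0.68 (SE 0.34), and PSIP1, which tethers MLL to chromatin, at 0.77 (SE 0.42), with edgeR adjusted p of 0.655 and 0.668. EZH2, the main methyltransferase of PRC2 and opponent of KDM6A and KDM6B at H3K27, lay at 0.23 (SE 0.45), and EZH1 at -0.19 (SE 0.36).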

How the data were processed

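Per the submitters' processing notes, CASAVA 1.8.2, Bowtie2 2.3.3, STAR 2.5.3a and bedtools 2.16.2 were used with hg38 and GRCh38. Their roles, the annotation release, the rule for shared reads and the strand setting are not given in the sources used here. The deposited tables hold, per gene and library, an estimated count (expected count, often fractional) and an RPKM value, which the authors computed from their reads before they deposited them. For 7866 genes the counted length is shorter than the gene's span.

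Counts were rounded to whole numbers and tested with edgeR 4.0.16 (R 4.3.3), using filterByExpr, TMM factors and quasi-likelihood F tests. One fit held the 6 Bru-seq libraries, and another all 9 with a term for line and 1 for assay. P-values were adjusted over all genes. DESeq2 1.42.0, other filters and scalings, a subtraction of the olfactory receptor read density, a length offset and leaving out each library were alternatives, and the tests were tried on simulated counts. Exact binomial intervals and floors cover counting error only, since reads carry no molecular identifiers. RPKM levels are as deposited. Replicate numbers were not taken as pairs in the main fits. Deviations of same-numbered libraries from their line means correlated across genes at 0.528 (KO C22 and WT), 0.105 (KO C28 and WT) and -0.27 (KO C28 and KO C22). KO C22 and WT thus shared part of their replicate difference, and the lower values both involve KO C28. Fits with the replicate number as a block are given below.

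Named genes are all 10 members, the 2 smallest p in each list for the mean of both clones where none passed, the nearest genes with a mean of at least 100 reads beside KDM6A and KDM6B, and the 3 genes most correlated with each, of which 1 is not reported here. Members, lists and tests were chosen with earlier results of these data known. Between genes, levels are compared only per length. Sequences are from RefSeq.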

Additional observations from a re-analysis of the deposited data

How the results depend on the processing

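In the 6 comparisons between lines, 0 of 10 genes passed under every alternative run, including each fit with a library left out. In fits with the replicate number as a block, 0 of the 10 passed in every comparison between lines. The main fits did not take the numbers as pairs. With both assays and the block, KDM6B was at -1.06 in KO C22 (SE 0.42) and -0.90 for the mean of both clones (SE 0.35). Their edgeR unadjusted p was 0.0325 and 0.0312, and adjusted p 0.687 and 0.613. ASH2L was at 0.82 in KO C22 (SE 0.32, edgeR unadjusted p = 0.0299, adjusted p = 0.677). Between the clones, ASH2L was at -0.83 (SE 0.32, edgeR unadjusted p = 0.0284, adjusted p = 0.7955). KMT2D was at 0.78 between them (SE 0.34, edgeR unadjusted p = 0.0477, adjusted p = 0.815). Of all 23443 genes in these block fits, 1509 had an edgeR unadjusted p below 0.05 in KO C22, 1790 for the mean of both clones and 1434 between the clones. For BruUV-seq against Bru-seq the count of 0 became 3 with DESeq2's Wald test (KMT2D, PAGR1 and WDR5), beside 17.5% of all genes. It became 2 with no filter on low counts (KMT2D and KDM6B), beside 2326 of 40508 genes. Leaving out 1 library at a time gave 0 to 2. The count was 1 without Bru-seq KO C22 replicate 2 (KMT2D), beside 494 of 23136 genes, and 2 without KO C28 replicate 2, beside 15.0%. The cause of these changes was not tested. Of 1020 values of single genes under alternatives, 79 had the other sign, 20 moved by over 1 SE and 8 passed the threshold, all in BruUV-seq against Bru-seq. Counts over all genes moved more than those of the 10: with both assays KO C22 gave 37 genes, against 5 after background subtraction, 272 with no filter, 85 with only the lines compared, 347 with DESeq2 and 3 to 142 with 1 library left out. KO C28 gave 23, against 9, 1100, 6, 685 and 1 to 67, and 38 with the replicate block. The mean of both clones gave 44, against 15, 649, 468 and 6 to 114, with 67 under the block. In Bru-seq alone 1 gene passed in each clone, against 43 and 190 with no filter, 91 and 205 with DESeq2, and 0 to 22 and 0 to 179 with 1 library left out in KO C22 and KO C28. KO C28 over KO C22 gave 0 genes, against 230 with no filter, 236 with DESeq2 and up to 18 with 1 library left out, and BruUV-seq over Bru-seq gave 1, against 2326, 4109 and 0 to 3305. The length offset gave a split of 15 genes higher and 16 lower in KO C22 (25 and 12 without it), 21 and 16 in KO C28 (17 and 6 without it) and 18 and 41 for the mean of both clones (26 and 18 without it). That mean uses all lines, so no fit of only the lines compared was run for it. Depth limits PAGR1 in Bru-seq, where no library exceeds 28 reads, and KDM6B, with as few as 42 reads.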
